A study of Mus musculus with 61 samples.

Results

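The 2 deposited lists of reproducible SALL1 and SMAD4 peaks in mouse microglia labelled wild-type (WT) were set against each other. The WT label differs between the 2 lists, as described below. Each peak was placed in a class by whether it shared at least 1 bp with a peak of the other factor. Of 15410 SALL1 peaks, 2254 (14.6%) were shared and 13156 were SALL1-only. Of 4024 SMAD4 peaks, 2252 (56.0%) were shared and 1772 were SMAD4-only. The series holds 36823 reproducible peaks over all factors, strains and genotypes. The study's text describes longer lists for both factors than those used here, so a site called SALL1-only or SMAD4-only may be shared in the longer lists.

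SALL1 is a zinc-finger transcription factor of the Spalt family that microglia, the resident macrophages of the brain, need for their identity, and other brain cells can also express it. SMAD4 is the common partner of the receptor-activated SMADs, which enter the nucleus when TGF-beta or related ligands bind their receptors and recognise short CAGAC boxes in DNA. Microglia depend on TGF-beta signalling, and PU.1 is the ETS factor that opens many macrophage enhancers.

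Binding was measured by chromatin immunoprecipitation and sequencing (ChIP-seq) with antibodies against SALL1 (2 libraries) and SMAD4 (2 libraries) in C57/Bl6 brain microglia labelled CD45+ CD11b+ CX3CR1+. The labels call the SALL1 libraries WT for the SALL1 enhancer and the SMAD4 libraries WT for SMAD4. The study's methods collect microglia of the SMAD4 deletion line at a younger age than those of EKO mice. Whether the WT mice of both lists were alike was not settled here, and its part in the overlap was not tested. Acetylation of histone H3 at lysine 27 (H3K27ac), found at enhancers and promoters in use, was measured in the same cell type in 2 libraries of Sall1 enhancer knockout mice (EKO, a CRISPR deletion of a far upstream Sall1 enhancer, homozygous) and 2 of WT mice. The labels give no age for these mice and do not say that the libraries of a group came from separate animals, so p-values measure the spread between libraries, which may be technical. The labels call the SALL1 samples whole cells, while the study's methods describe sorted nuclei, and the 2 mutant SMAD4 libraries carry conflicting genotype labels (a SMAD4 conditional knockout and the EKO). The study's text describes SMAD4 ChIP-seq in WT and EKO microglia and uses the SMAD4 knockout for gene expression. The genotype of these 2 libraries was not settled here, and they are called mutant-labelled below.

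For each marker gene the window with the highest mean of the 2 WT microglia libraries within 3000 bp of its start site was taken. For all 34 microglia identity genes that mean lay above 16 normalised tags (H3K27ac reads scaled to 10000000 per library). Their list medians were 141 and 86.1 tags. None of the 6 neuron markers with such a window lay above 16 (highest 7.71). Above it were 2 of 8 oligodendrocyte, 1 of 5 astrocyte, 2 of 5 lymphocyte and endothelial and 4 of 16 border macrophage markers. EKO library 1 stood apart in level, with 9717181 normalised tags summed over the windows, against 3320788 in EKO library 2, and 5490097 and 3935873 in the WT libraries. Near Sall1 the EKO label held in both libraries: the window over the start site had 0 and 2.24 tags in EKO microglia, against 241 and 108 tags in WT microglia.

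The bases under the sites that carry the findings are shown here for 1 shared, 2 SALL1-only and 1 SMAD4-only site, the 200 bases around the peak centre on the plus strand of GRCm38 (mm10), read from the RefSeq assembly. They were picked after their values were seen, from the highest-scored sites of each class, for the motif matches they hold; capitals mark any match to the 14 motifs searched.
Mgat4a, shared, intergenic, chr1:37562077-37562276: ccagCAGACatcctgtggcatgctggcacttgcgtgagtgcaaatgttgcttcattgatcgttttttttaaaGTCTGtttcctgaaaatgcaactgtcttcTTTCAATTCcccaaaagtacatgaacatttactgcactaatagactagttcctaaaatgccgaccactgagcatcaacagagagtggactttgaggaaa
Ppp1r21, SALL1-only, intron, chr17:88551534-88551733: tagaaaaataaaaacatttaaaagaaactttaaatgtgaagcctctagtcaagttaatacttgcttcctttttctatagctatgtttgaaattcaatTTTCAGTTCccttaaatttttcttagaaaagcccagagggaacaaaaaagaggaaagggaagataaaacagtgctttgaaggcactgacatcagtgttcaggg
Apbb1ip, SALL1-only, intergenic, chr2:22746928-22747127: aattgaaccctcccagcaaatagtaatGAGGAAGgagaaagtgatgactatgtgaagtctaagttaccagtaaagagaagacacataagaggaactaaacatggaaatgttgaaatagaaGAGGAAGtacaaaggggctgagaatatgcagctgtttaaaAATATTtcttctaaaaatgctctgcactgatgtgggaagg
Skil, SMAD4-only, promoter, chr3:31094620-31094819: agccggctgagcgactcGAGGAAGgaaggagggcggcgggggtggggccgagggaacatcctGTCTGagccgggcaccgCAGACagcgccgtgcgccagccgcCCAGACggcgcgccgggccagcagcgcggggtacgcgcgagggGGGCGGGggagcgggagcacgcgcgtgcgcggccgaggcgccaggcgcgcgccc
The Mgat4a bases held 2 CAGAC boxes and a match to a composite of PU.1 with an interferon regulatory factor. The Skil bases held 3 CAGAC boxes, a PU.1 match and a GC box, and were 80% G and C. The Ppp1r21 bases held no CAGAC box, a single match to the PU.1-IRF composite and 32.5% G and C, and the Apbb1ip bases held 2 PU.1 matches and the AT-rich SALL letters.

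Overlap was uneven between the lists and followed their scores. In the decile of SALL1 peaks with the highest deposited scores (132 to 464), 623 of 1541 (40.4%) were shared, against 14 of 1541 (0.909%) in the lowest decile (scores 10 to 16). Among SMAD4 peaks the share was 327 of 403 (81.1%) in the highest decile and 121 of 402 (30.1%) in the lowest. In the next decile of SALL1 peaks it was 469 of 1541 (30.4%), near the share in the lowest SMAD4 decile. Shared SALL1 peaks had a median score of 91.5 (interquartile range 60 to 139), against 41 (23 to 72) in SALL1-only peaks. Shared SMAD4 peaks had a median of 53 (36 to 80), against 34 (25 to 51) in SMAD4-only peaks. Over the 2254 shared pairs the 2 scores moved together (Spearman's rho 0.54), which describes pairs that share their chromatin and bases and is given with no test. Scores are not on 1 scale in the 2 lists and were compared only within a list. Each list pools its libraries, so these shares carry no replicate error. Their Wilson 95% intervals, 14.1 to 15.2% of SALL1 and 54.4 to 57.5% of SMAD4 peaks, cover counting error only.

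**Figure D1:**
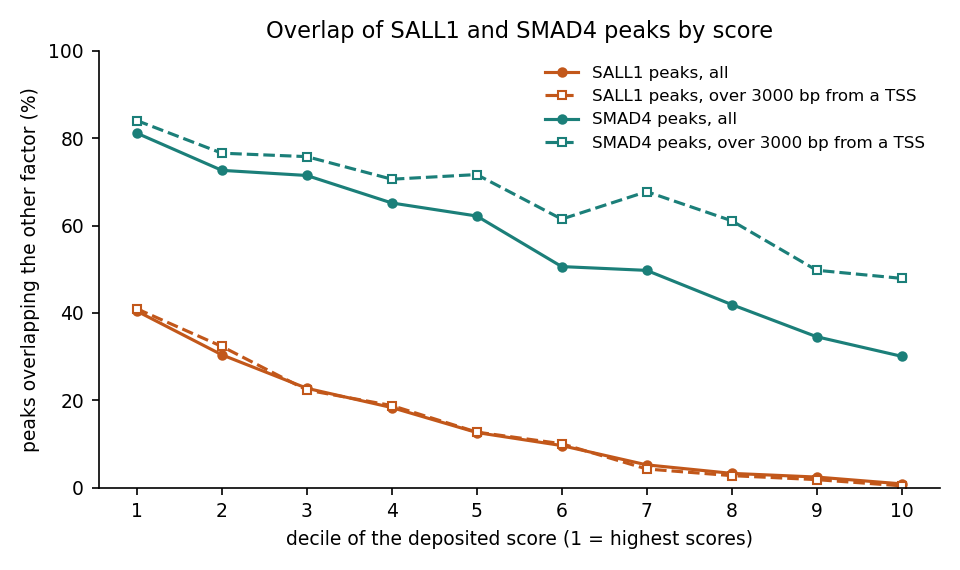
Percent of peaks that overlap the other factor (y axis) by decile of the deposited score (x axis, 1 holds the highest scores), for SALL1 and SMAD4 peaks, all (filled) and over 3000 bp from a start site (open). Both curves fall with the score, SALL1 to 0.909% and SMAD4 to 30.1%, and the SMAD4 peaks away from start sites stay at or above 47.9% in every decile.

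Shared peaks are close together by the rule that chose them, so their distances are a description. The centres of the 2254 pairs were a median of 36 bp apart (interquartile range 16 to 66 bp, largest 407 bp), 820 pairs (36.4%) were under 25 bp apart and 55 pairs (2.44%) were 200 bp apart or more. In 1505 pairs (66.8%) the SALL1 peak (median width 228 bp) lay whole inside the SMAD4 peak (median width 338 bp). The distance hardly moved with the SMAD4 score: its median was 38 bp in deciles 1 and 2 and 39 bp in deciles 9 and 10. It was 40 bp at promoters and 36 bp elsewhere. At the edge of the 1 bp rule, 10 pairs shared under 25 bp, and 27 SMAD4-only sites had a SALL1 peak within 100 bp. SALL1-only sites, which overlap no SMAD4 peak by the same rule, lay a median of 60570 bp from the nearest SMAD4 centre, and SMAD4-only sites 10176 bp from the nearest SALL1 centre. Of the SMAD4-only sites, 879 of 1772 (49.6%) had a SALL1 centre within 10000 bp and 1598 (90.2%) within 100000 bp. The lists differ in length, so these 2 distances were not set against each other.

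SMAD4-only sites were the class most often found at promoters. Within 3000 bp of the start of a protein-coding gene lay 375 of 2254 shared sites (16.6%), 2284 of 13156 SALL1-only sites (17.4%) and 898 of 1772 SMAD4-only sites (50.7%), against 29.7% of all 133129 open-chromatin windows. Within 1000 bp the shares were 9.27%, 8.54% and 43.3%, against 21.1% of windows. Introns held 41.1% of shared, 47.0% of SALL1-only and 27.2% of SMAD4-only sites, and intergenic sequence 39.4%, 32.9% and 20.5%. Read the other way, a SMAD4 peak was shared in 376 of 1274 promoters (29.5%), in 929 of 1411 introns (65.8%) and in 885 of 1248 intergenic places (70.9%). A SALL1 peak was shared in 375 of 2659 promoters (14.1%), 927 of 7104 introns (13.05%) and 888 of 5212 intergenic places (17.0%). Away from promoters the SMAD4 share stayed high into the lower scores, 284 of 338 (84.0%) in the highest decile and 104 of 217 (47.9%) in the lowest.

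**Figure D2:**
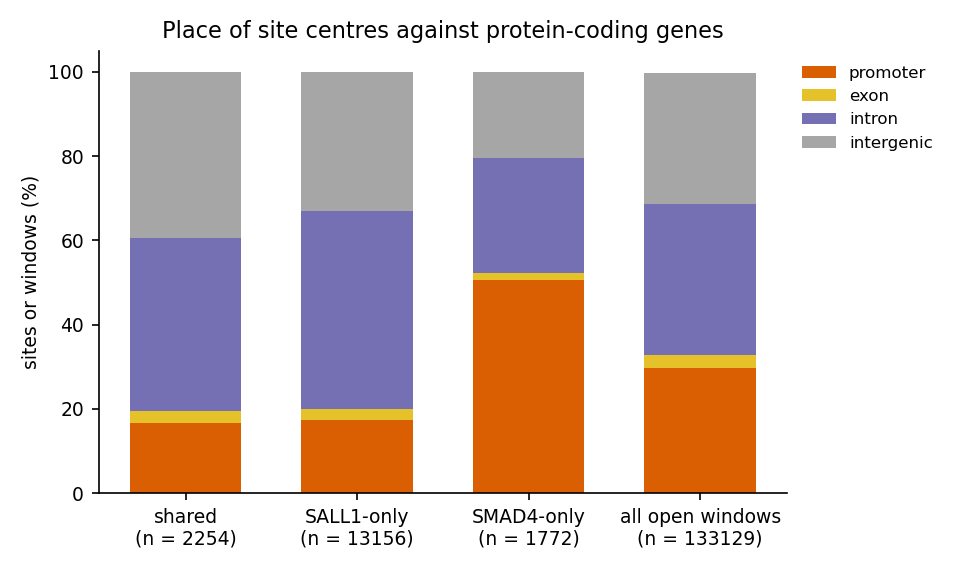
Percent of site centres (y axis) within 3000 bp of a protein-coding start (promoter), in exons, in introns and between genes, for the 3 classes and for all open-chromatin windows. SMAD4-only sites were the class with the most promoters, 50.7%, against 29.7% of all windows.

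The classes held different letters. Letters were searched in the 200 bp around the peak centre, which is that of the SALL1 peak in shared sites. CAGAC, the SMAD box, was found on either strand in 1380 of 2254 shared sites (61.2%), 4494 of 13142 SALL1-only sites (34.2%) and 1088 of 1772 SMAD4-only sites (61.4%), against 41.6% of all open windows. Around the SMAD4 centre of shared sites it was in 65.9%. The order of the shared and SMAD4-only classes turned with place: away from promoters the SMAD box was in 62.2% of shared (67.3% around the SMAD4 centre), 35.0% of SALL1-only and 74.1% of SMAD4-only sites, against 43.5% of windows, and at promoters in 56.5% (58.8%), 30.2% and 49.0%, against 37.2%. CCAGAC, which contains CAGAC, was in 26.1%, 8.74% and 30.9%, against 13.3%. GTCTAGAC, a SMAD palindrome, does not itself contain CAGAC. It was rare everywhere: it was in 30 shared sites (1.33%), 15 SALL1-only sites (0.114%) and 55 SMAD4-only sites (3.10%), against 0.284% of windows. Its share among SMAD4-only sites was 19 of 186 (10.2%) in the highest quintile of SMAD4 scores and 7 of 544 (1.29%) in the lowest. The SMAD box itself was in 151 of 186 (81.2%) and 299 of 544 (54.96%) of the same sites.

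GAGGAAG, the core of the PU.1 site, was most frequent in the shared class: it was in 897 shared sites (39.8%), 3565 SALL1-only sites (27.1%) and 469 SMAD4-only sites (26.5%), against 21.9% of windows. Away from promoters it was in 39.3% of shared, 27.7% of SALL1-only and 34.8% of SMAD4-only sites, against 24.9% of windows. At promoters it was in 42.1%, 24.5% and 18.4%, against 14.8%. GAANTGAAA, a composite of PU.1 with an interferon regulatory factor, was in 13.7% of shared, 9.26% of SALL1-only and 4.51% of SMAD4-only sites, against 4.02%. TTGCNNAA, the C/EBP letters, was in 13.7%, 13.6% and 7.34%, against 9.37%. TGACTCA, the AP-1 site, stood near its share of 5.71% of windows in every class (5.32%, 4.86% and 4.74%). The GC box GGGCGGG, common at promoters, was in 4.84% of shared, 2.36% of SALL1-only and 28.4% of SMAD4-only sites, against 10.0%. CTCF letters were in 0.133%, 0.867% and 0.621%, against 3.72%, and MEF2 letters in 1.11%, 1.29% and 0.564%, against 0.605%.

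AATATT, the AT-rich letters bound by SALL family proteins, differed in share between the SALL1 classes. They were in 60 shared sites (2.66%), 1639 SALL1-only sites (12.5%) and 16 SMAD4-only sites (0.903%), against 2.48% of windows. Among SALL1-only sites the share was higher at low scores: 145 of 1988 (7.29%) in the highest quintile of scores and 573 of 3023 (18.95%) in the lowest. It was also higher outside open chromatin. Of the SALL1-only sites 11104 (84.4%) overlapped an open window and 2052 did not, and AATATT was in 753 of 2046 sites outside (36.8%) and 886 of 11096 inside (7.98%). The outside sites were low in G and C, with a median of 30.5%, against 45% inside, and PU.1 letters were in 7.14% of them, against 30.8% inside. Base composition moved with the letters in every class: the median was 49.5% G and C in shared, 44% in SALL1-only and 59% in SMAD4-only sites, against 50.5% of windows. Between 45 and 50% G and C, AATATT was in 2.75% of shared, 3.96% of SALL1-only and 3.66% of SMAD4-only sites, against 2.59% of windows. Below 40% it was in 6 of 81 shared (7.41%) and 1192 of 3926 SALL1-only sites (30.4%), against 10.2%. For the SMAD box, the bin from 45 to 50% gave 63.3% of shared, 39.2% of SALL1-only and 81.7% of SMAD4-only sites, against 43.0%. For PU.1 it gave 41.5%, 34.3% and 39.0%, against 24.7%. A match says only that these letters lie in the 200 bp.

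**Figure D3:**
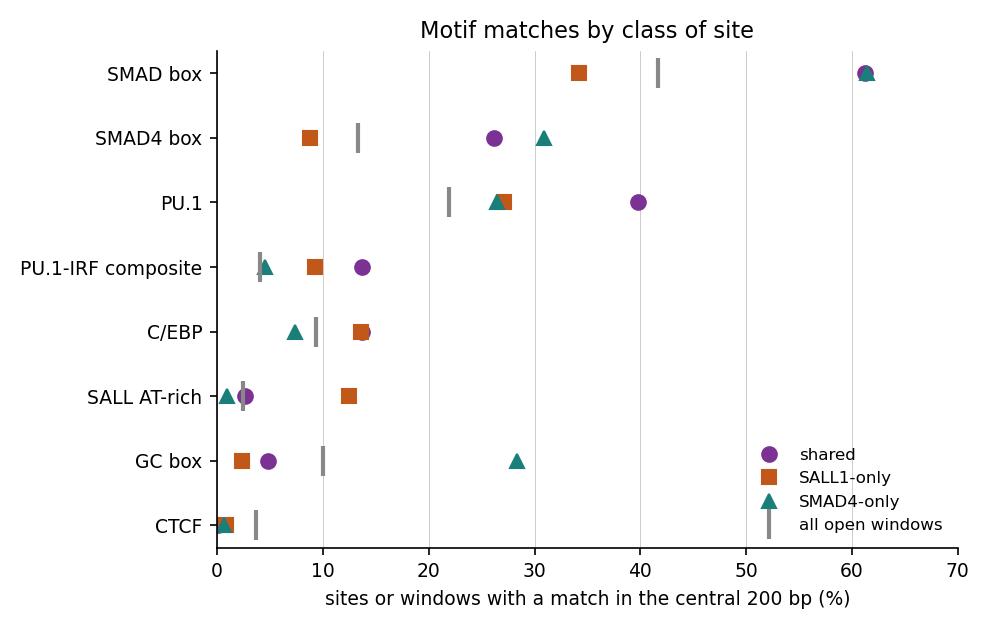
Percent of sites with a match in the central 200 bp on either strand (x axis) for 8 motifs (y axis), by class, with all open-chromatin windows as a grey bar. Shared sites are centred on the SALL1 peak. The SMAD box is in 61.2% of shared and 61.4% of SMAD4-only sites over all places, PU.1 is highest in shared sites (39.8%) and the AT-rich SALL letters in SALL1-only sites (12.5%).

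Shared sites lay in the chromatin that other assays also marked. A peak of p300, a co-activator and acetyltransferase, overlapped 1581 of 2254 shared sites (70.1%), 2715 of 13156 SALL1-only sites (20.6%) and 712 of 1772 SMAD4-only sites (40.2%). Within the upper 5 deciles of SALL1 scores the shares were 74.6% of shared and 35.2% of SALL1-only sites, and within the lower 5 deciles 44.1% and 9.22%. The p300 list pools a library labelled microglia with 2 labelled PU1+ nuclei. Of the SALL1-only sites outside open windows, 23 of 2052 (1.12%) had a p300 peak, against 24.2% of those inside. H3K27ac regions called in PU1+ nuclei library 2 covered 97.3% of shared, 69.6% of SALL1-only and 94.0% of SMAD4-only sites. Library 1, with 11149 called regions against 36057, covered 78.0%, 32.7% and 66.8%. Regions called in NeuN+ (neuronal) nuclei covered 18.1% and 17.4% of shared sites in the 2 libraries, 15.3% and 14.2% of SALL1-only sites and 51.9% and 49.8% of SMAD4-only sites. Olig2+ nuclei, which hold oligodendrocyte lineage cells, gave 17.5% in each library for shared sites, 14.4% and 14.2% for SALL1-only and 48.1% and 46.4% for SMAD4-only sites. Most of the SMAD4-only sites covered in these nuclei were at promoters. NeuN+ regions covered 80.0% and 76.4% of SMAD4-only sites at promoters and 23.1% and 22.5% elsewhere, where they covered 14.8% and 14.9% of shared and 11.4% and 10.9% of SALL1-only sites. Olig2+ regions covered 74.9% and 71.0% of SMAD4-only sites at promoters and 20.6% and 21.1% elsewhere, where they covered 14.5% and 15.2% of shared and 10.5% and 10.9% of SALL1-only sites.

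Shared SALL1 sites were also found more often in the SALL1 lists of other strains, which hold fewer peaks. Of shared sites 625 (27.7%) lay in the 3627 peaks of PWK microglia and 479 (21.3%) in the 2245 of SPRET microglia, against 1778 (13.5%) and 1114 (8.47%) of SALL1-only sites. The classes were closer at like scores. In the upper 5 deciles of SALL1 scores the PWK list held 31.3% of shared and 25.3% of SALL1-only sites and the SPRET list 24.2% and 16.9%, and in the lower 5 deciles PWK held 6.91% and 4.27% and SPRET 14 of 333 shared and 138 of 7372 SALL1-only sites. SMAD4-only sites were in them in 57 cases each (3.22%). The SALL1 list of EKO microglia held 7 peaks, of which 3 overlapped a shared site and 1 a SALL1-only site.

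In WT microglia the windows over shared and SMAD4-only sites carried more H3K27ac than those over SALL1-only sites. The 3566 windows over shared sites had median levels of 100.6 and 68.7 normalised tags in WT libraries 1 and 2, the 14659 over SALL1-only sites 30.8 and 24.9, and the 2803 over SMAD4-only sites 109 and 74.6, against 6.98 and 5.97 in the 111936 windows with no site. The mean of the 2 medians was 84.6 ± 22.6 tags over shared sites, 27.8 ± 4.18 over SALL1-only sites and 91.9 ± 24.4 over SMAD4-only sites (SD, n = 2 libraries). Library 1 lay above library 2 in every class, and all classes were read in the same 2 libraries. The SDs therefore do not measure the spread of a difference between classes. Within each library the SMAD4-only median was above the shared one, 109 against 100.6 and 74.6 against 68.7 tags. Both libraries of these 2 classes lay above both of the SALL1-only class. With 2 libraries no exact test between classes can reach 0.05, and windows of a class are not replicates.

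The order of the shared and SMAD4-only levels turned with place in each library, which 2 libraries cannot test. At promoters the SMAD4-only windows were higher (138 and 97.5 tags) than the shared ones (120.5 and 81.6), while away from promoters the shared ones were higher (96.9 and 65.7) than the SMAD4-only ones (76.8 and 51.8). SALL1-only windows were lower in both places, 49.7 and 37.8 tags at promoters and 27.1 and 21.9 elsewhere, against 18.9 and 15.9 and 5.75 and 4.98 in windows with no site. The level also followed the score. Windows under SALL1-only sites of the highest score quintile had medians of 72.3 and 50.8 tags and those of the lowest 12.3 and 10.95, while shared windows of the lowest SALL1 quintile (83 windows) still had 73.1 and 45.8. Windows under SMAD4-only sites had medians of 203 and 131 tags in the highest quintile of SMAD4 scores and 82.1 and 57.7 in the lowest, against 182 and 117 and 40.2 and 30.9 under shared sites of the same quintiles.

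**Figure D4:**
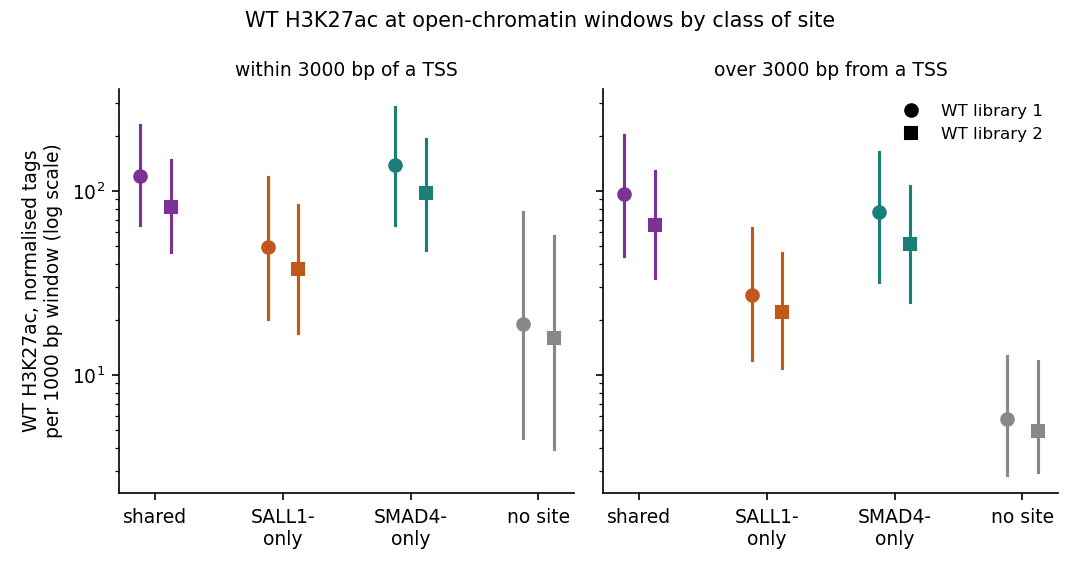
Median WT H3K27ac in normalised tags per 1000 bp window (y axis, log scale) by class of site, for WT libraries 1 (circles) and 2 (squares), with bars from the lower to the upper quartile of windows. Shared and SMAD4-only windows stand above SALL1-only windows in both places, 96.9 and 65.7 tags against 27.1 and 21.9 for shared and SALL1-only windows over 3000 bp from a start site.

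The strongest shared sites lay in introns and between genes. The 8 with the smallest sums of the 2 score ranks included sites at Col15a1, a collagen gene (SALL1 score 317, SMAD4 score 283), and Mgat4a, a glycosyltransferase gene (SALL1 score 348, SMAD4 score 185). Elmo1, which acts in engulfment of dying cells, held the SALL1 peak of rank 2 of 15410 (score 454), with a SMAD4 score of 169 and centres 38 bp apart. Sites nearest to Tubgcp5, Tns3, Bin1 and Cflar, an inhibitor of caspase-8, were also among them. All 8 overlapped a p300 peak and a mutant-labelled SMAD4 peak, and 6 lay in the PWK or the SPRET SALL1 list, all but Col15a1 and Cflar.

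The 3 strongest SMAD4-only sites were at genes that restrain TGF-beta signalling. The highest SMAD4 score of all 4024 peaks, 678, belonged to a site at -339 bp from the start of Skil, whose protein is a corepressor of SMADs. The window there had 1986 and 762 tags in EKO microglia, against 987 and 714 in WT microglia (limma log2 change 0.16 ± 0.08 SE, adjusted p = 0.189). Ski, the paralogous corepressor, had an intronic site of score 366 and a window of 909 and 269 tags in EKO, against 592 and 415 in WT microglia. Smad7, an inhibitory SMAD, had a site of score 358 at -326 bp from its start, with 830 and 281 tags in EKO, against 450 and 296 in WT microglia. These tags are as deposited, with the higher level of EKO library 1 kept in, and are not read as a rise. After normalisation the 5 tested SMAD4-only windows of Ski had a median log2 change of -0.41, with 1 called losing and 0 gaining. The other 5 were nearest to Prpf40b, Spsb1, Sowahc, Btbd19 and Fance (scores 302 to 237). All 8 overlapped a p300 peak and a mutant-labelled SMAD4 peak, and none lay in the PWK or SPRET SALL1 lists.

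The strongest SALL1-only sites were nearest to F830045P16Rik (score 421), Ppp1r21 (414), Hpgd (402), which encodes a prostaglandin-degrading enzyme, Apbb1ip (389), an adaptor of Rap1 in leukocytes, Rnase10 (376), Hcar2 (361), a hydroxycarboxylic acid receptor gene, Rad51b (360) and Gins1 (359). All 8 overlapped a p300 peak. For 4 of them, F830045P16Rik, Hpgd, Rnase10 and Gins1, the mutant-labelled SMAD4 list held a peak where the WT SMAD4 list held none. Among all tested distal SALL1-only windows, the SALL1 peak overlapped a mutant-labelled SMAD4 peak in 396 and did not in 8260. The 8 sites were picked for their scores, and the share at like scores was not determined.

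By nearest gene, 1508 protein-coding genes held a shared site, 5243 a SALL1-only site and 1452 a SMAD4-only site. Of the genes with a shared site 1149 also held a SALL1-only site, and 475 genes with a SMAD4-only site held no SALL1 site at all. The genes with most shared sites were Sipa1l2 (9), Ubash3b and Chd9 (8 each) and Qk and Gm826 (7 each). SALL1-only sites were densest at Csmd3 (63), Qk and Plxdc2 (45 each), Zeb2 (34), which encodes a macrophage transcription factor, and Mbnl1 (33). Zeb2 had no shared and no SMAD4-only site. SMAD4-only sites were most frequent at Tle3, a corepressor gene (7), and at Ski, Smad7, Prex1 and Bcor (5 each). Long genes and gene deserts can collect more sites of any class by this count.

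Most microglia identity genes had shared sites. A shared site was nearest to 27 of 34 (79.4%), a SALL1-only site to 28 (82.4%) and a SMAD4-only site to 13 (38.2%), against 6.88%, 23.9% and 6.62% of all 21924 protein-coding genes. These lists were chosen with earlier results of these data known, and the counts are a description. Selplg, which encodes P-selectin ligand 1, held at -11454 bp a shared site with a SMAD4 score of 495 (rank 2 of 4024) and a SALL1 score of 188, with centres 238 bp apart. P2ry12, the purinergic receptor that defines homeostatic microglia, had a shared site at -1407 bp (SALL1 score 284, SMAD4 score 157). Another of its shared sites had a SMAD4 score of 252. The C1q genes, which encode the first component of complement, had shared sites at -110, -54 and 16 bp from their starts, with SALL1 scores of 125 (C1qa), 149 (C1qb) and 168 (C1qc) and SMAD4 scores of 132, 145 and 131. The 2 scores could part: the leading shared site had SALL1 63 with SMAD4 205 at Tmem119 and SALL1 50 with SMAD4 264 at Olfml3, while Itgam had SALL1 296 with SMAD4 96. The leading site is the 1 shared site given per gene, and it need not hold the gene's highest score of either factor.

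Sall1 itself held shared sites in its far upstream region. The window at -360309 bp had 0 and 0 tags in EKO microglia, against 108 and 79.6 in WT microglia. The window at -352683 bp had 1 and 0 tags in EKO, against 525 and 298 in WT microglia, and that at -348720 bp 1 and 3.73 in EKO, against 358 and 196 in WT microglia. These 3 lie in the region of the deleted enhancer, so removed DNA and lost acetylation cannot be told apart there, and which of them fall inside the deletion was not determined. A further shared window at -138422 bp had 14.1 and 0.75 tags in EKO, against 134 and 76.6 in WT microglia. A SMAD4-only site (score 92) lay 1224 bp into the gene, where the window, which also held a SALL1-only site, had 0 and 0.75 tags in EKO, against 128 and 76.6 in WT microglia.

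The TGF-beta and SMAD genes held more SMAD4-only than shared sites. Of 42 genes, 14 (33.3%) held a shared site, 22 (52.4%) a SALL1-only site, 21 (50%) a SMAD4-only site and 12 no site, against the same 6.88%, 23.9% and 6.62% of all genes. Inhibitors and corepressors came with the high scores: beside Skil, Ski and Smad7, the inhibitory SMAD gene Smad6 had a promoter SMAD4-only site of score 228, the ubiquitin ligase gene Smurf2 a promoter site of 67, and Pmepa1, whose protein sequesters receptor SMADs, an intergenic site of 178. Among receptors, Acvrl1 (103), Acvr2b (99), Bmpr2 (72), Tgfbr2 (59), Tgfbr1 (57) and Eng (48) held SMAD4-only sites. The leading shared site of Pmepa1 had a SALL1 score of 247 and a SMAD4 score of 149, and another of its shared sites had a SMAD4 score of 322. Tgfb1, the ligand, had a shared site at -75 bp (SALL1 24, SMAD4 79).

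Of 40 macrophage transcription factor genes, 21 (52.5%) held a shared site, 32 (80.0%) a SALL1-only site and 19 (47.5%) a SMAD4-only site, against 6.88%, 23.9% and 6.62% of all genes. The leading shared site had SALL1 102 with SMAD4 203 at Cebpb (65140 bp from its start), SALL1 123 with SMAD4 150 at Mef2a (-72808 bp) and SALL1 231 with SMAD4 103 at Mef2c (-1422 bp). Other shared sites reached SMAD4 259 at Mef2a and SALL1 145 at Cebpb. Spi1, which encodes PU.1, held a SMAD4-only promoter site of score 41, and Egr1 an intergenic SMAD4-only site of score 149. Of 29 disease-associated microglia genes 6 (20.7%, against 6.88% of all genes) held a shared site, Axl, Tyrobp, Cd9, Ctsb, Ctsd and Ctsz. The leading site of Ctsd, a lysosomal protease gene, had a SMAD4 score of 220. Of 17 border macrophage genes 1 (5.88%), Cd163, held a shared site, near the 6.88% of all genes, and 9 (52.9%) a SALL1-only site, against 23.9%. Of the markers of other cells, no neuron or oligodendrocyte gene of 12 each held a shared site, 2 of 10 astrocyte genes (Slc1a3 and Gja1) did, and 3 of 12 lymphocyte and endothelial genes (Pecam1, Cdh5 and Lck). The Gja1 site lay 414087 bp from its start. Beside 6.88% of all genes, lists this short cannot show a lack of shared sites.

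H3K27ac in EKO against WT microglia was then read by class, which asks what happens at each kind of site when Sall1 is lost. Of 133129 windows, 55285 had a mean above 16 normalised tags and were tested with limma after quantile normalisation of the 4 libraries; calls needed a fold above 2 and a limma p below 0.05 after Benjamini-Hochberg adjustment. Of the windows over shared sites 3406 of 3566 were tested, of SALL1-only 11196 of 14659 and of SMAD4-only 2613 of 2803, so the filter took more of the SALL1-only windows. Windows can overlap each other, and a site can lie in several. Tags are given as deposited and log2 changes after normalisation, and fewer cells with the mark and less mark per cell cannot be told apart. Over all tested windows 7.56% were called losing and 8.68% gaining.

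Gains were less frequent over shared and SMAD4-only windows than over SALL1-only windows. They were called in 99 of 3406 shared windows (2.91%), 1013 of 11196 SALL1-only windows (9.05%) and 41 of 2613 SMAD4-only windows (1.57%), beside the 8.68% of all windows. Losses were called in 296 shared (8.69%), 864 SALL1-only (7.72%) and 237 SMAD4-only windows (9.07%), beside 7.56%. Without the filter on tags, 2.47% of shared, 5.25% of SALL1-only and 1.21% of SMAD4-only windows gained, beside 2.89% of all 133129 windows, and 6.37%, 4.10% and 6.35% lost, beside 2.19%, so how far each class stood from all windows depended on the filter. The median log2 change was -0.18 over shared, -0.06 over SALL1-only and -0.08 over SMAD4-only windows, against -0.03 over all tested windows. Values as deposited, with the higher level of EKO library 1 kept in, moved the medians to 0.09, 0.26 and 0.18, against 0.28, and left 16, 10 and 9 losing and 4, 35 and 0 gaining windows.

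Among the 3 classes, losses were most frequent at SMAD4-only sites away from promoters. Over 3000 bp from a start site 269 of 2752 shared windows (9.77%), 765 of 8656 SALL1-only windows (8.84%) and 188 of 1063 SMAD4-only windows (17.7%) lost H3K27ac, beside 10.9% of all such windows. Gains there were 95 (3.45%), 852 (9.84%) and 24 (2.26%), beside 11.6%. The median log2 change of the SMAD4-only windows was -0.38, with 74.1% of them lower in EKO, against -0.10 and 55.3% of all such windows. Windows that held a SALL1-only and a SMAD4-only site were kept out of the 3 classes. Of these, 19 of 106 distal windows (17.9%) lost and 0 gained, with a median of -0.37, so the losses were not particular to windows without a SALL1 site. Within 3000 bp of a start site, losses were 27 of 654 shared (4.13%), 99 of 2540 SALL1-only (3.90%) and 49 of 1550 SMAD4-only windows (3.16%), beside 3.3%, and gains 4 (0.612%), 161 (6.34%) and 17 (1.10%), beside 4.92%. At a like level SMAD4-only windows were still the class with the most losses: from 16 to 50 tags away from promoters, losses were 115 of 690 shared (16.7%), 476 of 4869 SALL1-only (9.78%) and 97 of 345 SMAD4-only windows (28.1%), against 12.2% of windows with no site. Above 150 tags they were 36 of 906 (3.97%), 39 of 883 (4.42%) and 21 of 269 (7.81%), against 5.00%.

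edgeR on recovered whole tags called 180 of the 1063 distal SMAD4-only windows losing (16.9%), beside 10.1% of all distal windows. Leaving out 1 library leaves 1 in its group, so that the spread comes from the other group alone and the lone library is assumed to vary like it. In these fits edgeR called between 136 and 192 of them. limma without EKO library 1, or without WT library 1, called none, with 409 and 332 of the 1063 at an unadjusted p below 0.05 in either direction; the fits lacking EKO library 2 and WT library 2 called 101 and 54. The median log2 change of these windows lay between -0.39 and -0.35 in the 4 limma fits with 3 libraries.

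**Figure D5:**
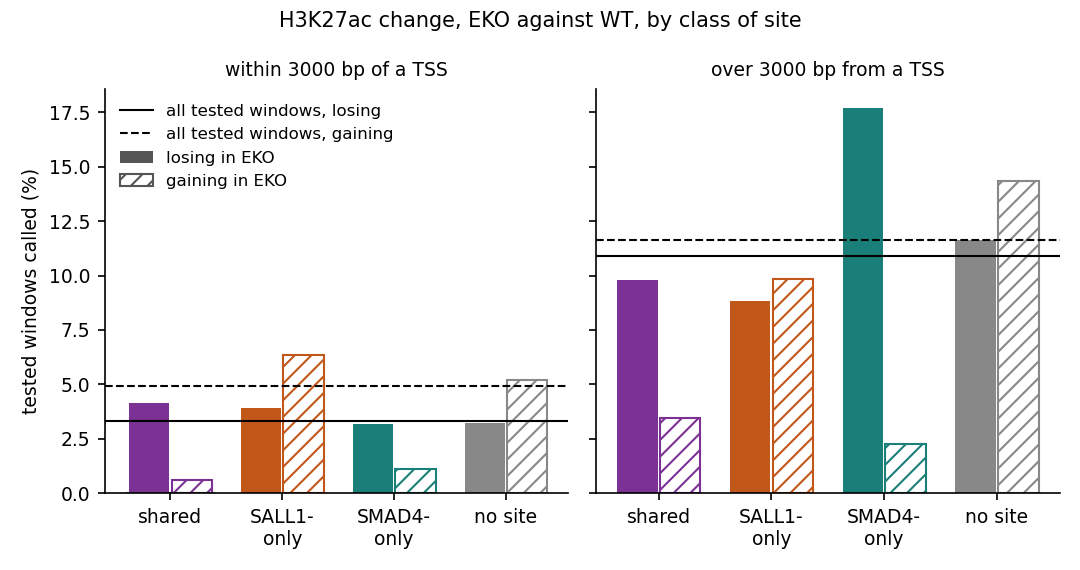
Percent of tested windows called losing (solid) and gaining (hatched) H3K27ac in EKO against WT microglia (y axis) by class of site, near and far from start sites, with lines for all tested windows of that place. Distal SMAD4-only windows show 17.7% losing, above the 10.9% line, and distal shared and SMAD4-only windows 3.45% and 2.26% gaining, below the 11.6% line.

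The change also went with the mutant-labelled SMAD4 list, and in part with the scores. Distal SALL1-only windows of the highest score quintile gained in 91 of 2103 cases (4.33%) and lost in 138 (6.56%), and those of the lowest quintile gained in 147 of 791 (18.6%) and lost in 79 (9.99%). Losses over distal SMAD4-only windows followed the SMAD4 score less. They were 35 of 190 (18.4%) in the highest quintile, 33 of 226 (14.6%) in the next and 47 of 222 (21.2%) in the lowest. Gains there were 0 of 190 in the highest quintile and 10 of 222 (4.50%) in the lowest. Of the distal SALL1-only windows whose SALL1 peak overlapped a mutant-labelled SMAD4 peak, 72 of 396 (18.2%) gained and 14 (3.54%) lost. Where it did not, 780 of 8260 (9.44%) gained and 751 (9.09%) lost. Of distal SMAD4-only windows, 31 of 342 (9.06%) lost H3K27ac where the SMAD4 peak was also in the mutant-labelled list, and 157 of 721 (21.8%) where it was not. Distal shared windows gave 71 of 1150 (6.17%) and 196 of 1582 (12.4%). The mutant-labelled list, of 2333 peaks, held 876 of 2252 shared SMAD4 peaks (38.9%) and 545 of 1772 SMAD4-only peaks (30.8%). Within a score quintile the classes were closer: in the highest quintile of SMAD4 scores it held 465 of 619 shared (75.1%) and 136 of 186 SMAD4-only peaks (73.1%), and in the lowest 28 of 260 (10.8%) and 83 of 544 (15.3%). At promoters it held 62 of 315 SMAD4-only peaks of the lowest quintile (19.7%), and elsewhere 21 of 229 (9.17%). The depth of the 2 SMAD4 lists is unknown, and its part in these shares was not tested.

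Among the named windows, the losses of largest fold over shared sites were the 3 far upstream of Sall1, an intron of Khdrbs3 and an intron of Prkca, a protein kinase C gene. The Prkca window had 22.1 and 4.48 tags in EKO, against 442 and 266 in WT microglia (log2 change -5.52 ± 0.29 SE, limma adjusted p = 1.10e-10). The Khdrbs3 window had 0 and 7.47 tags in EKO, against 243 and 150 in WT microglia (log2 change -5.93 ± 0.62, adjusted p = 7.32e-07). The groups did not overlap in either. Gains over shared sites were led by a region near Gatm, a creatine synthesis gene, and an intron of Rbpj, which encodes the effector of Notch signalling, each by 2 overlapping windows, and by Hip1. The first Rbpj window had 269 and 93.3 tags in EKO, against 10.3 and 8.96 in WT microglia (3.48 ± 0.29, adjusted p = 3.39e-08).

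Over SMAD4-only sites the largest losses were at Mlph, by 2 overlapping windows, Cdk5rap3, Arhgef10l and Prkce. The Cdk5rap3 window had 3.01 and 1.49 tags in EKO, against 131 and 96.5 in WT microglia (log2 change -5.65 ± 0.48, limma adjusted p = 4.61e-08). The largest gains were at Cdc42bpg, Runx3, Col14a1, Nrip1 and Rplp1, of 2.54 to 2.07 on the log2 scale, smaller than the leading losses. Over SALL1-only sites losses were led by windows near Gm10234, 1700025G04Rik, Chsy1 and Hspb3, and gains by an intron of Trps1, a zinc-finger repressor gene, and by pairs of windows near 4930583I09Rik and Csl. The stronger 4930583I09Rik window had 859 and 234 tags in EKO, against 20.1 and 3.98 in WT microglia (5.01 ± 0.35, adjusted p = 4.45e-09).

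Among the listed genes, the microglia identity genes lost H3K27ac over shared windows about as often as all tested windows did. Of their 85 shared windows 6 lost (7.06%, beside 7.56% of all tested windows and 8.69% of shared ones) and 2 gained (2.35%), with a median log2 change of -0.36. Sall1 held 4 of the 6 losses, 3 of them in the region of the deleted enhancer, and without it 2 of 81 lost (2.47%), 1 at P2ry12 and 1 at Selplg. The windows over the leading shared sites of both genes were not called (-0.60 ± 0.23, adjusted p = 0.0610 at P2ry12 and -0.40 ± 0.15, adjusted p = 0.0552 at Selplg, limma). Both gains were at Bin1. Of the 28 SMAD4-only windows of the microglia identity genes 3 lost (10.7%, beside 9.07% of all SMAD4-only windows), 1 each at Rhob, Sparc and Tgfbr1. The median log2 change of the 28 windows was -0.60. Eng, an accessory TGF-beta receptor, fell at its shared site: the window had 3.01 and 2.24 tags in EKO, against 97.3 and 57.7 in WT microglia (log2 change -4.89 ± 0.53, limma adjusted p = 1.10e-06). Cd9, a tetraspanin gene, was nearest to a shared site 49220 bp from its start. The window there fell (137 and 50.8 tags in EKO, against 260 and 154 in WT microglia, log2 change -1.50). So did the window over the SMAD4-only promoter site of Cd9 (30.1 and 7.47, against 86.2 and 48.8, log2 change -2.49). Fos, an immediate early gene, was nearest to a shared site 58817 bp from its start. The window there rose, with 1109 and 315 tags in EKO, against 301 and 186 in WT microglia (1.04 ± 0.12, limma adjusted p = 3.85e-06). Of 49 shared windows at TGF-beta and SMAD genes 4 lost and 4 gained (8.16% each), 3 of the gains at Pmepa1. All shared windows lost in 8.69% and gained in 2.91%. Of 67 SMAD4-only windows at these genes 2 lost (2.99%, Ski and Tgfbr1) and 6 gained (8.96%). The gains were 4 at Pmepa1 and 1 each at Bmpr2 and Smad6. All SMAD4-only windows lost in 9.07% and gained in 1.57%, and all tested windows in 7.56% and 8.68%. Of the 98 SALL1-only windows at TGF-beta and SMAD genes 3 lost (3.06%, Id2 and Tgfbr2) and 14 gained (14.3%). These gains were at Cited2, Id2, Nrros, Skil, Tgfb3, Tgfbr2 and Tgif1. All SALL1-only windows lost in 7.72% and gained in 9.05%. Over SALL1-only windows, border macrophage genes gained in 7 of 15 windows (46.7%, Cd163, Mrc1, Ms4a7 and Siglec1) and none lost. Markers of other cells moved in the same class. Astrocyte markers lost in 7 of 8 windows, all 8 at Slc1a3, with a median of -2.10, oligodendrocyte markers in 1 of 5 (Mbp), and lymphocyte and endothelial markers gained in 2 of 8, both at the B cell gene Ms4a1. The part of other cells in these changes was not tested.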

How the data were processed

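The authors mapped reads to mm10, called peaks per library with HOMER and deposited, per factor, peaks reproducible between libraries (IDR below 0.05), each with a whole-number score; the submitters' processing notes name Bowtie2 and HOMER. They also deposited a signal table of H3K27ac tags, scaled to 10000000 per library, in 1000 bp windows that are taken here, from the study's methods, to be merged open-chromatin (ATAC-seq) peaks of WT and EKO microglia, and called H3K27ac regions with their normalised tag signal for nuclei. The peak lists hold no read counts, so their depth is unknown. Tag steps gave library depths of 9963454 and 13392914 tags in EKO and 24357795 and 10047696 in WT microglia, and 99.999 to 100% of values came out whole within 0.01 tags for edgeR and DESeq2.

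Overlaps used 1 bp; places and nearest genes came from GENCODE protein-coding transcripts of GRCm38, by site centre. A window was shared if it overlapped a shared site, and 165 windows with both factors apart were kept out. limma 3.58.1 with a trend fitted quantile-normalised log2(tags + 1) of windows with a mean above 16, and it was checked on simulated data; edgeR 4.0.16 and DESeq2 1.42.0 were alternatives, of which edgeR called 3878 windows losing and 5851 gaining. Named were the 8 highest-scored sites and 5 genes with most sites per class, the 5 windows of largest fold per class and direction, and listed genes with a shared site. Some of these are not reported here. Listed genes with SALL1-only or SMAD4-only sites were named after their values were seen. The members and lists were chosen with earlier results of these data known. H3K27ac regions of EKO nuclei were not used here.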

Additional observations from a re-analysis of the deposited data

How the results depend on the processing

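Peak lists pool their libraries and give no replicate error, EKO library 1 stands apart in level, and 2 libraries a group limit every fit. With centres within 100 bp, 12.9% of SALL1 and 49.4% of SMAD4 sites were shared, and among the higher-scored peaks of each list (7705 and 2012) 17.4% and 66.6%. Promoters within 1000 bp held 9.27% of shared, 8.54% of SALL1-only and 43.3% of SMAD4-only sites. In windows above 16 tags the WT level of the SALL1-only class was 39.3 tags; leaving out a WT library gave 68.7 to 100.6 tags for shared, 24.9 to 30.8 for SALL1-only and 74.6 to 109 for SMAD4-only windows.

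With values as deposited, limma called 16 shared, 10 SALL1-only and 9 SMAD4-only windows losing and 4, 35 and 0 gaining (53 SMAD4-only windows at an unadjusted p below 0.05), and away from promoters 16, 9 and 8 losing and 4, 28 and 0 gaining; this scaling moved the median log2 change of all tested windows from -0.03 to 0.28. Leaving out a library, limma called 0 to 167 shared, 0 to 411 SALL1-only and 0 to 132 SMAD4-only windows losing, and 0 to 54, 0 to 354 and 0 to 16 gaining. Away from promoters it called 0 to 156, 0 to 363 and 0 to 101 losing, and 0 to 50, 0 to 295 and 0 to 11 gaining. The counts of 0 came without EKO library 1 and without WT library 1, where 1018 and 818 shared, 3154 and 2631 SALL1-only and 702 and 572 SMAD4-only windows had an unadjusted p below 0.05. edgeR, an alternative chosen after seeing the data for these subsets, called 211 to 352, 613 to 935 and 176 to 250 losing and 92 to 115, 921 to 1273 and 40 to 57 gaining, and away from promoters 193 to 315, 541 to 815 and 136 to 192 losing and 87 to 109, 763 to 1076 and 23 to 27 gaining. The other alternatives, among them DESeq2, a pseudocount of 5 and no filter, kept each count within 1.5 times. The shares of all windows moved more without the filter: 2.47% of shared and 2.89% of all windows gained, against 2.91% and 8.68% with it, and 6.37% and 2.19% lost, against 8.69% and 7.56%.

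With the replicate block limma called 304 shared, 920 SALL1-only and 248 SMAD4-only windows losing and 102, 1051 and 41 gaining. The numbers are only shared: deviations of EKO and WT library 1 had a correlation of 0.036 over 55285 windows.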
